A study of Mus musculus with 15 samples.

Results

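Oligodendrocyte lineage genes were followed in the brains of mouse embryos that carry the K228E substitution in TBR1. The 7 genes are *Olig1*, *Olig2*, *Sox10*, *Nkx2-2*, *Pdgfra*, *Cspg4*, and *Gpr17*, and they were chosen by name, as established markers of oligodendrocyte precursors, out of 19475 genes with deposited values. All 7 were detected in every embryo.

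Oligodendrocytes wrap axons in myelin. In the embryonic forebrain, their precursors arise first from ventral progenitor zones under Sonic hedgehog signaling and later from more dorsal ones, spread through the tissue as dividing cells that depend on PDGF, and form myelin mostly after birth. *Tbr1* itself encodes a T-box transcription factor of postmitotic deep-layer projection neurons of the cortex in the developing brain.

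The samples were E16.5 embryos of the C57BL/6J background in 3 groups of 5, which were WT, heterozygous (*Tbr1*+/K228E), or homozygous (*Tbr1*K228E/K228E), with 3 females and 2 males in each. The mutant embryos carry the K228E change, in exon 1 of *Tbr1*, on 1 or on both alleles in every cell, and the selection cassette of the knock-in allele had been removed by crossing with mice that express Cre from the protamine promoter. The study's text calls the tissue forebrain, its methods speak of brains, and the series says whole brain. Embryos rather than cell cultures were the samples, but litters are not given.

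The unit throughout is the normalized count, an estimated read count per gene divided by the size factor of its embryo, and the columns of the 15 embryos added up to 30.5 to 31.8 M (megacounts) of these units. *Tbr1* itself exceeded its WT level by 1.69 on the log2 scale in *Tbr1*K228E/K228E embryos (limma, adjusted p = 0.00437), with the mean of the *Tbr1*+/K228E embryos between them. Markers of other tissues and regions differed widely between embryos. The mean log2 value of 13 marker genes of meningeal fibroblasts was 4.65 to 5.03 in WT replicate 3 and *Tbr1*K228E/K228E replicates 3 and 4 and at least 7.44 in the other 12 embryos. The mean log2 value of hindbrain and spinal *Hox* genes ranged from 0.043 to 6.86, with WT replicate 4 and *Tbr1*+/K228E replicate 1 highest, and WT replicate 4 had the lowest mean for 10 genes of the dorsal telencephalon, at 10.6, with 11.0 to 11.9 in the other embryos. Differences from WT that moved with these embryos are given with and without them.

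In the GRCm38 build, *Olig2* (chromosome 16, 91225457 to 91228677, plus strand) and *Olig1* (91269772 to 91271933, plus strand) are neighbors separated by 41095 bases. *Sox10* lies on chromosome 15 (79154908 to 79165240, minus strand), *Pdgfra* on chromosome 5 (75152292 to 75198215, plus strand), and *Cspg4* on chromosome 9 (56865033 to 56899870, plus strand). *Nkx2-2* (147177546 to 147194243, minus strand) shares chromosome 2 with *Tbr1*, at a distance of 85.4 Mb. Antisense partners overlap the spans of *Olig1* (Gm15966), *Pdgfra* (Gm42802), and *Nkx2-2* (Nkx2-2os). Because the library kit does not mark the strand, reads of any exon sequence they share cannot be told apart. Whether exons overlap was not examined.

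RefSeq promoter sequence on GRCm38.p6 was at hand for 4 of the 7 genes (*Olig2*, *Nkx2-2*, *Pdgfra*, and *Cspg4*). The bases before the start of transcription are shown for *Olig2*, a factor that specifies the lineage, and for *Pdgfra*, the receptor that defines its precursors, because TBR1 is a T-box factor and its binding word was searched there. The *Olig2* stretch is at chr16:91225300-91225456 and the *Pdgfra* stretch at chr5:75152001-75152250, both on the plus strand and read 5′ to 3′, and capitals mark the CCAAT box in its reverse orientation.
*Olig2*: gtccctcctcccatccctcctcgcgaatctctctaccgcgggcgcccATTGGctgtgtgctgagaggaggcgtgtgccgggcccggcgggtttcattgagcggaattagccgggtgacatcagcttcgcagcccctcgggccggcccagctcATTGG
*Pdgfra*: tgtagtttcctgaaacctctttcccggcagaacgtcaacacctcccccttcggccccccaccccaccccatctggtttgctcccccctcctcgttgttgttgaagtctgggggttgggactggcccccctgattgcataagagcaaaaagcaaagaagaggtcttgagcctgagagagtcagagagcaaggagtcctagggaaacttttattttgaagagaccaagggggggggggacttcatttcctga
The T-box word AGGTGTGA was searched on both strands of a 300-base window (250 bases before to 50 bases after the start) and was found in none of the 4 promoters. The same word stands in 1.28% of all 32851 promoters in the table. The E-box word CAGCTG (16.3% of all promoters) and the SOX word ACAAAG (18.7%) were not found in these windows either, and CCAAT, which 37.4% of all promoters hold, was found in *Olig2* only, in 2 places. The absence of these letters describes these windows and nothing beyond them.

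The first comparison asked whether the lineage genes differ in level between the genotypes. None of the 7 passed the test in any comparison. In *Tbr1*K228E/K228E relative to WT embryos, 6 of the 7 were lower by mean, by 0.10 to 0.20 on the log2 scale, with *Nkx2-2* higher by 0.19, and the differences of *Olig1*, *Olig2*, *Sox10*, and *Gpr17* all but vanished when WT replicate 4 was left out. That of *Nkx2-2* was 0.01 without WT replicate 2. In brain tissue as a whole, fewer cells of the lineage and less RNA per cell cannot be told apart. The values of each gene follow, in order of the roles of the proteins.

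*Olig2* encodes the basic helix-loop-helix factor that specifies the lineage and also serves ventral progenitors of neurons. Its normalized counts in WT replicates 1 to 5 were 648, 504, 544, 812, and 583. They were 609.7, 501, 526, 541, and 601 in *Tbr1*+/K228E embryos and 682, 446, 655, 561, and 539 in *Tbr1*K228E/K228E embryos. WT replicate 4 was the highest of all 15 embryos, *Tbr1*K228E/K228E replicate 2 was the lowest, and the 3 groups overlapped. The group means were 618 ± 121 (SD, n = 5), 556 ± 47.4, and 577 ± 94.7. The difference from WT was -0.14 ± 0.13 (log2, SE) in *Tbr1*+/K228E embryos and -0.10 ± 0.13 in *Tbr1*K228E/K228E embryos, the latter with a 95% confidence interval of -0.37 to 0.18 (limma, adjusted p = 1; exact permutation p = 0.595). Without WT replicate 4 it was 0.01.

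*Olig1*, the neighboring paralog that acts later in differentiation, had normalized counts of 1367, 1079.5, 1021, 2123, and 1358 in WT replicates 1 to 5. The 5 *Tbr1*+/K228E embryos had 1569, 872, 1053, 1209, and 1083, and the 5 *Tbr1*K228E/K228E embryos had 1320.0, 1216, 1087, 1414, and 1013. WT replicate 4 and *Tbr1*+/K228E replicate 1 were the highest, and the ranges overlapped. The means were 1390 ± 439, 1157 ± 260.0, and 1210.0 ± 164 (SD, n = 5 each). In *Tbr1*+/K228E embryos, the log2 difference from WT was -0.24 ± 0.18 (SE; 95% confidence interval -0.63 to 0.15; limma, adjusted p = 0.999; exact permutation p = 0.333), and in *Tbr1*K228E/K228E embryos it was -0.16 ± 0.18 (-0.55 to 0.23). Without WT replicate 4, these differences were -0.08 and 0.01. Within embryos, the log2 ratio of *Olig1* to *Olig2* was 1.14 ± 0.18 in WT, 1.03 ± 0.23 in *Tbr1*+/K228E, and 1.07 ± 0.30 in *Tbr1*K228E/K228E embryos (SD, n = 5), values that differed by less than their SD.

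*Sox10* encodes the SRY-box factor that oligodendrocytes keep throughout their life and that neural crest and Schwann cells also use. WT replicates 1 to 5 had normalized counts of 176, 154, 124, 294, and 182. The *Tbr1*+/K228E embryos had 234, 160.2, 223, 135, and 177, and the *Tbr1*K228E/K228E embryos had 167, 155, 119.5, 181, and 176. The highest count was again in WT replicate 4, followed by *Tbr1*+/K228E replicates 1 and 3, and the groups overlapped. Relative to WT, the log2 difference was 0.03 ± 0.21 in *Tbr1*+/K228E embryos and -0.17 ± 0.21 in *Tbr1*K228E/K228E embryos (SE; 95% confidence interval of the latter -0.62 to 0.27; limma, adjusted p = 1; exact permutation p = 0.492). Leaving out WT replicate 4 brought the latter to 0.01.

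*Nkx2-2* encodes a homeodomain factor of oligodendrocyte precursors that also marks ventral neuron territories outside the cortex. Its normalized counts were 142, 91.0, 192, 122, and 262 in WT replicates 1 to 5. In *Tbr1*+/K228E embryos they were 176, 121, 197, 161, and 187, and in *Tbr1*K228E/K228E embryos 162, 199.8, 143, 183, and 182. The lowest and the highest of all 15 embryos were both WT, so the 2 mutant groups lay inside the WT range. *Nkx2-2* was the only gene with a higher mean in both mutant groups, by 0.13 ± 0.23 and 0.19 ± 0.23 on the log2 scale (SE), and the second difference had a 95% confidence interval of -0.29 to 0.67 (limma, adjusted p = 1; exact permutation p = 0.532). The second difference ran from 0.01 without WT replicate 2 to 0.39 without WT replicate 5, and the first was -0.05 without WT replicate 2. WT replicate 4, which was highest in the other 3 transcription factors, had the third lowest count here.

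*Pdgfra* encodes the receptor for PDGF-A, which drives division and survival of the precursors, and is also a gene of fibroblasts, including those of the meninges. WT replicates 1 to 5 had 1869.8, 1832, 894, 2073, and 1823 normalized counts. *Tbr1*+/K228E embryos had 1865, 1798, 1775, 1339.5, and 1387, and *Tbr1*K228E/K228E embryos had 1576, 1447, 1058, 1215, and 1956. The 3 lowest of the 15 counts were those of WT replicate 3 and *Tbr1*K228E/K228E replicates 3 and 4, and the groups overlapped. The means were 1698 ± 461, 1633 ± 249, and 1450.5 ± 346 (SD, n = 5). The log2 difference from WT was -0.01 ± 0.21 in *Tbr1*+/K228E and -0.20 ± 0.21 in *Tbr1*K228E/K228E embryos (SE; 95% confidence interval of the latter -0.65 to 0.24; limma, adjusted p = 1; exact permutation p = 0.468). These 3 embryos were also those that stood apart with low meningeal markers. Without WT replicate 3, the difference from WT was -0.23 in *Tbr1*+/K228E and -0.42 in *Tbr1*K228E/K228E embryos, and the latter was -0.10 without *Tbr1*K228E/K228E replicate 3 and -0.15 without replicate 4 of that group.

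*Cspg4* encodes NG2, a surface proteoglycan of oligodendrocyte precursors and of pericytes. In WT replicates 1 to 5, the normalized counts were 620.4, 525, 455, 589, and 503. Those of the *Tbr1*+/K228E embryos were 588, 479, 519, 445, and 517, and those of the *Tbr1*K228E/K228E embryos were 529, 432, 425, 505, and 509.7. The counts stepped down by mean from 538 ± 66.7 in WT to 509.8 ± 53.3 in *Tbr1*+/K228E and 480.3 ± 47.9 in *Tbr1*K228E/K228E embryos (SD, n = 5), with 2 *Tbr1*K228E/K228E embryos below the lowest WT embryo. Between *Tbr1*K228E/K228E and WT embryos, this was the smallest p among the 7 genes, at a log2 difference of -0.16 ± 0.10 (SE; 95% confidence interval -0.37 to 0.05; unadjusted p = 0.12, limma adjusted p = 1; exact permutation p = 0.159). It kept its sign without any 1 embryo, at -0.22 to -0.11.

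*Gpr17* (chromosome 18, 31942997 to 31949636, minus strand) encodes a G protein-coupled receptor of precursors that are committed to differentiate. Its span overlaps that of *Lims2* on the opposite strand, and reads of any exon sequence they share cannot be told apart. Whether their exons overlap was not examined. The normalized counts of *Gpr17* were 448, 343, 324, 774, and 450.2 in WT replicates 1 to 5. They were 574, 297, 397, 368, and 357 in the *Tbr1*+/K228E embryos, and 405, 393, 343, 458, and 364 in the *Tbr1*K228E/K228E embryos. WT replicate 4 stood above all other embryos, *Tbr1*+/K228E replicate 1 came next, and the ranges overlapped. The differences from WT were -0.19 ± 0.21 in both mutant groups (log2, SE), with 95% confidence intervals of -0.63 to 0.25 and -0.63 to 0.26 (limma, adjusted p = 0.999 and 1). The exact permutation p was 0.508 and 0.556. Without WT replicate 4, they were 0.01 in both.

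**Figure D1:**
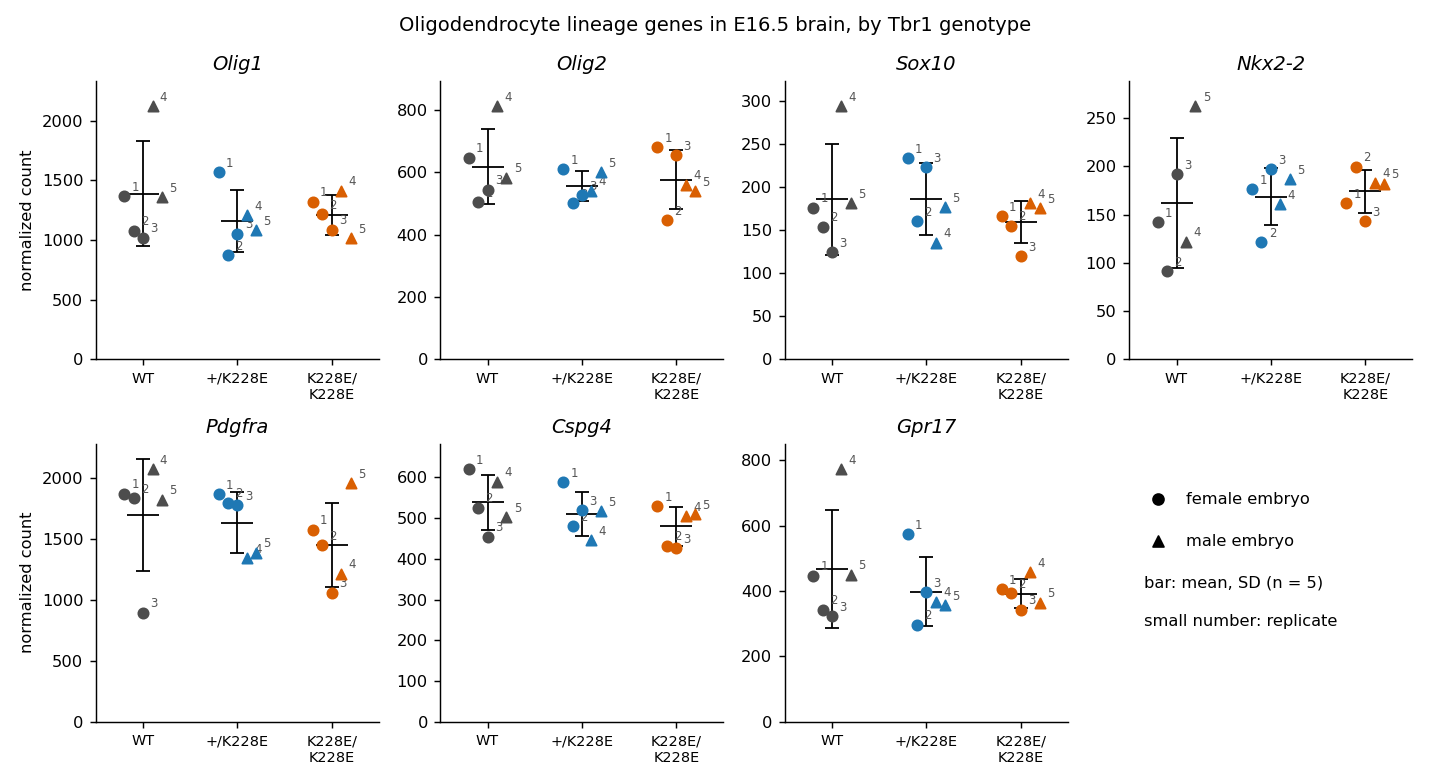
Normalized counts of the 7 oligodendrocyte lineage genes (y axes, from 0) in each E16.5 embryo, by *Tbr1* genotype (x axis). Circles are female and triangles male embryos, small numbers are replicate numbers, and bars give the mean and SD (n = 5). The groups overlap for every gene, and WT replicate 4 is the highest embryo for *Olig1*, *Olig2*, *Sox10*, *Pdgfra*, and *Gpr17*, reaching 2123, 812, 294, 2073, and 774.

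Over all genes, 0% of the 16507 tested genes passed an adjusted p of 0.05 between *Tbr1*+/K228E and WT embryos, 0.127% (21 genes) between *Tbr1*K228E/K228E and WT embryos, and 0.0788% (13 genes) between the 2 mutant groups (limma with Benjamini-Hochberg adjustment). The count among the 7 lineage genes was 0 in each comparison, and it was 0 also at an unadjusted p under 0.05, which 1.79%, 3.23%, and 3.3% of all tested genes reached. The embryos of the compared groups overlapped for all 7, and 0.26%, 0.594%, and 0.878% of all genes did not overlap in the 3 comparisons. By sign alone, 5, 6, and 3 of the 7 were lower in the first-named group of the comparisons *Tbr1*+/K228E with WT, *Tbr1*K228E/K228E with WT, and *Tbr1*K228E/K228E with *Tbr1*+/K228E, where 51.2%, 51.3%, and 49.8% of all tested genes were lower. Several marker lists of other cells and regions also lay mostly below WT in *Tbr1*K228E/K228E embryos, with 0 of their genes called. Below WT were 9 of 10 astrocyte genes (median log2 difference -0.13), 10 of 11 genes of neural crest and Schwann cells (-0.58), and 10 of 11 of pericytes (-0.14). So were 8 of 9 of endothelium (-0.10), 11 of 13 of meningeal fibroblasts (-0.77), 12 of 14 of the cell cycle (-0.11), and 13 of 14 *Hox* genes (-1.52). Other lists went the opposite way, with 9 of 10 genes of ventral forebrain progenitors (0.16) and 9 of 10 of the dorsal telencephalon (0.09) above WT. The part of these lists in the signs of the lineage genes was not tested. The medians of the 7 log2 differences were -0.08, -0.16, and 0.01, with 0.00 for all tested genes. Because the 3 comparisons share embryos, these counts are descriptions. Between the 2 mutant groups, the log2 differences ran from -0.20 ± 0.21 for *Sox10* to 0.08 ± 0.18 for *Olig1* (SE; limma, adjusted p at least 0.996). The slope per mutant allele, which uses the 3 genotypes as 0, 1, and 2 copies, was also called for none of the 7 and for 0.0727% of all genes, and ran from -0.10 (*Pdgfra*) to 0.09 (*Nkx2-2*).

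For *Tbr1*K228E/K228E relative to WT embryos, the interval of the ratio was narrowest for *Cspg4* (0.774 to 1.03) and *Olig2* (0.773 to 1.13) and wider for *Pdgfra* (0.639 to 1.18), *Gpr17* (0.647 to 1.195), and *Nkx2-2* (0.815 to 1.59).

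**Figure D2:**
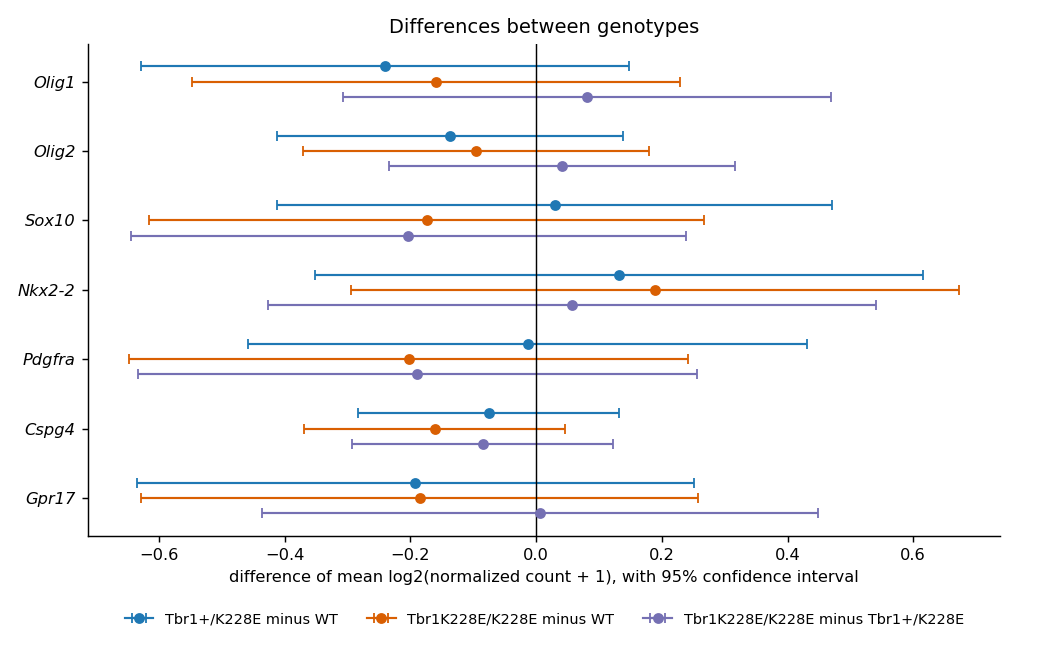
Differences in mean log2(normalized count + 1) between genotypes (x axis) for each gene (y axis), with 95% confidence intervals from the fit over 15 embryos. Blue is *Tbr1*+/K228E minus WT, orange *Tbr1*K228E/K228E minus WT, and purple *Tbr1*K228E/K228E minus *Tbr1*+/K228E. All 21 intervals include 0, and the narrowest are those of *Cspg4*.

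Male embryos had higher means than female embryos for all 7 genes, by 0.02 (*Cspg4*) to 0.21 (*Nkx2-2*) on the log2 scale, with genotype in the fit, while 49.6% of all tested genes were lower in males. None passed the test (limma, adjusted p at least 0.63), which 0.0788% of all genes did. WT replicate 4 is a male, and without it the differences of *Pdgfra* and *Cspg4* had the opposite sign (-0.00205 and -0.0156). Of all tested genes, 11% had an unadjusted p under 0.05 between the sexes (limma). Marker lists differed between the sexes in both directions. Lower by mean in males were 14 of 14 cell cycle genes (median log2 difference -0.32, 11 with an unadjusted p under 0.05, limma). So were 10 of 10 genes of ventral forebrain progenitors (-0.29) and 9 of 10 of the dorsal telencephalon (-0.22). Higher in males were 9 of 11 genes of ventral neuron territories that use *Nkx2-2* (0.40) and 7 of 10 astrocyte genes (0.09). Among lists of the lineage, 17 of 20 surface and matrix genes were higher (0.14) and 26 of 30 transcription factors lower (-0.09). None of these passed the adjustment (limma), and their part in the sex differences of the lineage genes was not tested. A difference between the sexes in the effect of genotype was tested in 21 interactions, 3 for each gene. The smallest p was that of *Sox10* between *Tbr1*+/K228E and WT embryos, where the difference was lower in males than in females by 1.01 on the log2 scale (unadjusted p = 0.0126, limma adjusted p = 0.734).

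Levels were compared between genes per kilobase of annotated exon. This length merges the exons of all annotated transcripts and is the same in every embryo, so the order between genes depends on it. Without the division, *Pdgfra* had the highest mean count in each genotype. Over the 15 embryos, the order by mean was *Olig1* (579 normalized counts per kb), *Olig2* (231), *Pdgfra* (159), *Gpr17* (80.8), *Nkx2-2* (58.4), *Sox10* (58.1), and *Cspg4* (42.7). The order of neighbors held in 15 of 15 embryos for *Olig1* over *Olig2*, *Olig2* over *Pdgfra*, *Pdgfra* over *Gpr17*, and *Sox10* over *Cspg4*. *Gpr17* exceeded *Nkx2-2* in 13 of 15 embryos, and *Nkx2-2* and *Sox10* could not be ordered, with the former higher in 9 of 15. *Olig1*, a gene with a single exon, was thus the highest of the set at E16.5 on this scale. It lay above *Olig2* by 1.31 ± 0.23 (log2 ratio per kb, SD, n = 15).

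Embryos of the same genotype varied in all 7 genes. The SD of log2 values pooled within genotypes was 0.39 for *Nkx2-2*, 0.37 for *Pdgfra*, 0.36 for *Gpr17*, 0.35 for *Sox10*, 0.32 for *Olig1*, 0.22 for *Olig2*, and 0.16 for *Cspg4*, and the median over all tested genes was 0.15. Among the 1000 genes nearest in level, *Pdgfra* was more variable than 98.9%, *Olig1* than 96.3%, and *Gpr17* than 93.2%, whereas *Cspg4* was near the middle, at 58.8%. *Pdgfra* and *Olig1*, the genes with the highest normalized counts of the set, thus varied most for their level.

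The next question was whether the genes varied together from embryo to embryo. Each genotype mean was subtracted, and Pearson's r and Spearman's rho were computed over the 15 embryos for the 21 pairs, with p from 100000 permutations within genotypes and Benjamini-Hochberg adjustment over the 21. The share of other gene pairs that would pass was not computed, so no count here sets the lineage genes apart. Of the 21 pairs, 3 passed an adjusted p of 0.05. The closest was *Olig1* with *Gpr17* (r = 0.97, permutation p = 6e-05, adjusted p = 0.00126; rho = 0.91, permutation p = 0.00019), whose r was 0.94 without WT replicate 4 and 0.90 without the 2 embryos farthest from the median. It was 0.99 in the 9 females and 0.96 in the 6 males. For values within a sex, here and below, genotype means were subtracted within that sex. Each r in males thus rests only on the difference between the 2 males of each genotype. The log2 ratio of *Gpr17* to *Olig1* accordingly stayed within narrow bounds, at -1.59 ± 0.08 in WT, -1.54 ± 0.12 in *Tbr1*+/K228E, and -1.62 ± 0.09 in *Tbr1*K228E/K228E embryos (SD, n = 5).

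*Sox10* varied with *Gpr17* (r = 0.86, permutation p = 0.00053, adjusted p = 0.00557; rho = 0.87, permutation p = 0.00048), with r = 0.70 and an adjusted p of 0.134 without the 2 farthest embryos and r = 0.74 and an adjusted p of 0.042 without WT replicate 4, and it was 0.83 in females and 0.80 in males. *Sox10* with *Cspg4* (r = 0.76, permutation p = 0.00268, adjusted p = 0.0188; rho = 0.78, permutation p = 0.0021) kept an r of 0.75 without the 2 farthest embryos and reached 0.80 without WT replicate 4, with 0.84 in females and 0.96 in males. *Olig1* and *Olig2*, neighbors on the chromosome, gave r = 0.66 (permutation p = 0.0157, adjusted p = 0.0548; rho = 0.69, permutation p = 0.0119, adjusted p = 0.0498) and an r of 0.35 without the 2 farthest embryos. Also past the adjustment by rho and not by r was *Pdgfra* with *Cspg4* (r = 0.67, permutation p = 0.0126, adjusted p = 0.0531; rho = 0.71, permutation p = 0.00359, adjusted p = 0.0189), with an r of 0.41 without the 2 farthest embryos, 0.73 in females, and 0.28 in males. *Nkx2-2* had r between -0.19 and 0.09 with the other 6 genes and adjusted p of at least 0.868 (permutation tests). In the 6 males r was -0.81 with *Olig1*, -0.87 with *Olig2*, -0.76 with *Sox10*, and -0.91 with *Gpr17*, and in the 9 females it was 0.28, -0.02, 0.22, and 0.35. The difference between the sexes in these values was not tested, and the values in males rest on 2 embryos per genotype.

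**Figure D3:**
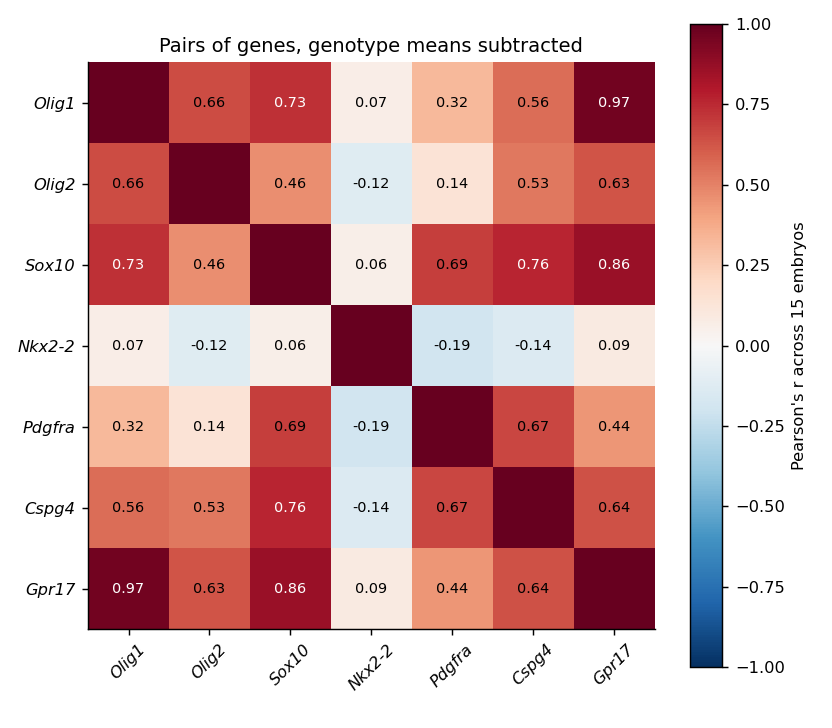
Pearson's r between the log2 values of each pair of the 7 genes across 15 embryos after each genotype mean was subtracted (color scale from -1 to 1, r printed in each cell). *Olig1* with *Gpr17* is the closest pair (0.97), and the row of *Nkx2-2* holds values from -0.19 to 0.09.

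Several of these genes are also used by cells outside the lineage, and their levels were therefore set beside marker lists of other cell types and regions. *Pdgfra* was lowest in embryos with low meningeal markers. The 6 embryos with the lowest *Pdgfra* were also the 6 with the lowest mean log2 value of the meningeal fibroblast list, at 4.65 (WT replicate 3), 5.03 and 5.00 (*Tbr1*K228E/K228E replicates 3 and 4), 7.44 and 7.95 (*Tbr1*+/K228E replicates 4 and 5), and 8.03 (*Tbr1*K228E/K228E replicate 2), and the other 9 embryos ranged from 8.31 to 9.59. The summed normalized count of the 13 meningeal genes ranged from 591 to 34125 in WT, from 4702 to 19637 in *Tbr1*+/K228E, and from 769 to 23017 in *Tbr1*K228E/K228E embryos. Because the embryos fall into 2 clusters on this list, no r over all 15 is given. Within the 12 embryos of the upper cluster, r was 0.75 (permutation p = 0.0299, adjusted p = 0.319 over 28 relations; rho = 0.78, permutation p = 0.0247; r = 0.68 without the 2 farthest embryos). With the meningeal mean as a covariate, the log2 difference of *Pdgfra* between *Tbr1*K228E/K228E and *Tbr1*+/K228E embryos was 0.06 instead of -0.19. The match was not particular to the meningeal list, since the same 6 embryos were also the 6 lowest on the pericyte list. Among the 11 embryos in the upper cluster of the pericyte list, r with *Pdgfra* was 0.70 (permutation p = 0.0552, adjusted p = 0.319). It was -0.08 without the 2 farthest embryos.

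*Pdgfra* also varied with the 9-gene endothelial list (r = 0.88, permutation p = 0.00045, adjusted p = 0.0111 over 49 relations; rho = 0.73, permutation p = 0.00419), with r = 0.95 without WT replicate 4 and 0.98 in females and 0.86 in males. The endothelial mean was lowest in the 3 embryos that were low in the meningeal list and in *Tbr1*+/K228E replicate 4. Without the 2 farthest embryos r was 0.84 but the adjusted p was 0.171 (permutation test).

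For *Nkx2-2*, the list of interest was that of ventral neuron territories that use it. Among the 11 embryos in the upper cluster of this list, r was 0.79 (permutation p = 0.00577, adjusted p = 0.162 over 28 relations; rho = 0.79, permutation p = 0.00918) and 0.86 without the 2 farthest, which did not pass the adjustment. The other 4 embryos, low on that list, had *Nkx2-2* counts of 192, 121, 161, and 143. For *Cspg4*, the list of interest was that of pericytes. Among the 11 embryos in its upper cluster, r was 0.35 (permutation p = 0.349, adjusted p = 0.6985 over 28 relations; rho = 0.30, permutation p = 0.4295) and 0.24 without the 2 farthest.

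For the 7 marker lists on which the embryos did not split, 49 relations were computed and 15 passed an adjusted p of 0.05, of which 10 were positive and 5 negative. How often genes outside the lineage have such relations was not computed, so this count does not set the lineage genes apart. On 2 of these lists a few embryos stood apart, too few to count as a cluster. WT replicate 4 was lowest on the dorsal telencephalon list, with a gap of 30.1% of the range. WT replicate 4 and *Tbr1*+/K228E replicate 1 were highest on the astrocyte list, with a gap of 30.6%. *Gpr17*, *Olig1*, and *Sox10* were lower where the dorsal telencephalon list was higher. The values were r = -0.82 for *Gpr17* (permutation p = 0.00056, adjusted p = 0.0111; rho = -0.75, permutation p = 0.00452), -0.79 for *Olig1* (permutation p = 0.00203, adjusted p = 0.0199; rho = -0.76, permutation p = 0.00404), and -0.79 for *Sox10* (permutation p = 0.0038, adjusted p = 0.0238; rho = -0.65, permutation p = 0.0151). Without the 2 farthest embryos they were -0.66, -0.58, and -0.52 and no longer passed, and without WT replicate 4 only that of *Gpr17* did (r = -0.65, adjusted p = 0.0492). Within females and males the 3 values were between -0.94 and -0.67.

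The astrocyte list went the other way. *Sox10* (r = 0.88, permutation p = 0.00068, adjusted p = 0.0111), *Cspg4* (r = 0.80, permutation p = 0.00176, adjusted p = 0.0199), *Gpr17* (r = 0.77, permutation p = 0.00766, adjusted p = 0.0341), and *Pdgfra* (r = 0.77, permutation p = 0.00389, adjusted p = 0.0238) were higher in embryos with more expression of astrocyte genes, with rho of 0.88, 0.83, 0.71, and 0.75 (permutation p = 0.00045, 0.00089, 0.00865, and 0.00178). Without the 2 farthest embryos r was 0.76, 0.69, 0.34, and 0.69, and none passed the adjustment. Both *Sox10* (r = 0.71, permutation p = 0.00706, adjusted p = 0.0341; rho = 0.70, permutation p = 0.0117) and *Cspg4* (r = 0.78, permutation p = 0.00303, adjusted p = 0.0238; rho = 0.79, permutation p = 0.00256) also varied with the neural crest and Schwann cell list, which reached 0.99 for *Sox10* in the 9 females. The relations of *Olig1* and *Gpr17* with the *Hox* list (r = 0.75 each, permutation p = 0.00596 and 0.00893, adjusted p = 0.0325 and 0.0365; rho = 0.68 and 0.60, permutation p = 0.0165 and 0.0427) fell to 0.40 and 0.31 without the 2 farthest embryos. The other 3 relations that passed were *Cspg4* with the *Hox* list (r = 0.68; rho = 0.64, permutation p = 0.013 and 0.0264) and *Olig1* and *Gpr17* with the cell cycle list (r = -0.66 and -0.65, permutation p = 0.0145 and 0.0139; rho = -0.54 and -0.51, permutation p = 0.0687 and 0.0883), each with an adjusted p of 0.0473. They were 0.63, -0.50, and -0.49 without the 2 farthest embryos. What part these other cells and regions play in the levels of the lineage genes was not tested.

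**Figure D4:**
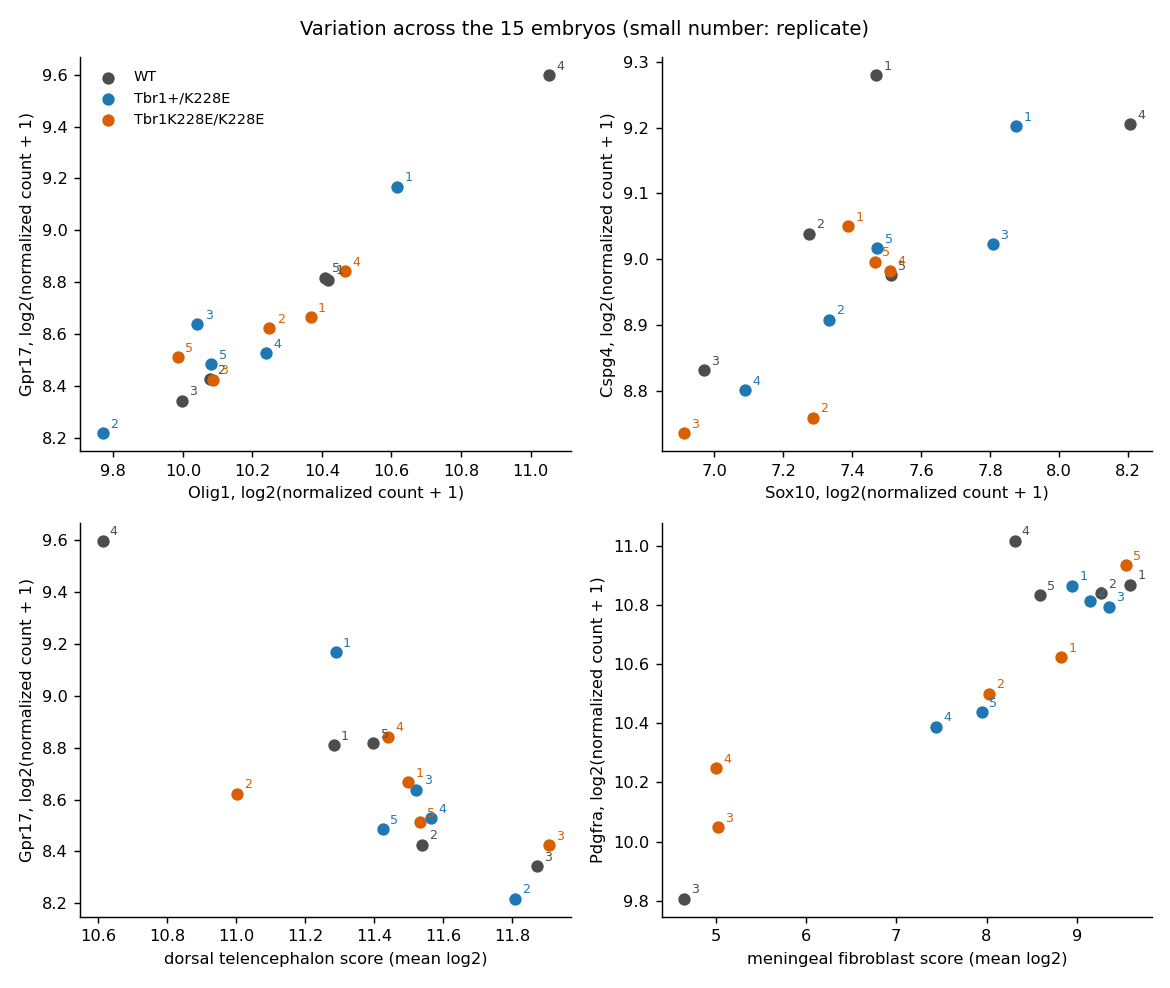
Each point is an embryo, colored by genotype and numbered by replicate, with log2(normalized count + 1) on the axes or, on the x axes of the lower panels, the mean log2 value of a marker list. *Olig1* and *Gpr17* (upper left, r = 0.97) and *Sox10* and *Cspg4* (upper right, r = 0.76) rise together, *Gpr17* is highest in WT replicate 4, where the dorsal telencephalon mean is lowest (10.6), and *Pdgfra* is lowest in the 3 embryos whose meningeal mean is 4.65 to 5.03.

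Among all 16506 other tested genes, those whose log2 values, with genotype means subtracted, had the highest r with each member were *Sncb* (0.97), *Pcdh7* (0.97), and *Gpr17* (0.97) for *Olig1*, and *Slc6a11* (0.99), *Map1a* (0.97), and *Hepacam* (0.97) for *Gpr17*, over 15 embryos. For *Sox10* they were *Slc4a4* (0.97), *Aplp2* (0.93), and *Egfr* (0.93), and for *Cspg4* they were *Aldh2* (0.91), *Kank4* (0.90), and *Slc1a4* (0.89). *Pdgfra* was closest to *Col26a1* (0.97), *Ptpn14* (0.96), and *Foxc2* (0.96), the last a forkhead factor of mesenchyme including the meninges. *Olig2* was closest to *Rasl10b* (0.88), *Slc39a11* (0.88), and *Maneal* (0.86), and *Nkx2-2* to *Fndc9* (0.92), *Fign* (0.88), and *Efcab1* (0.87). These values are descriptions, since the highest of many correlations over 15 embryos is high by selection.

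The other genes of the lineage were examined by list. Of the 18 signals that induce or restrain the lineage, 1 passed the test between *Tbr1*K228E/K228E and WT embryos, with a lower level, and 0 passed with a higher one, where 0.127% of all tested genes passed. It was *Wnt7b*, which encodes a Wnt ligand made by neurons and by oligodendrocyte precursors. Its normalized counts ranged from 2083 to 3205 in WT, from 2129 to 3135 in *Tbr1*+/K228E, and from 1353 to 1684 in *Tbr1*K228E/K228E embryos, so that the last group lay below all others, as 0.594% of all tested genes did not overlap between *Tbr1*K228E/K228E and WT embryos. The log2 difference was -0.79 ± 0.11 from WT (SE; limma, adjusted p = 0.00493) and -0.78 ± 0.11 from *Tbr1*+/K228E embryos (adjusted p = 0.00897). *Shh*, the ligand that starts the lineage ventrally, was at 89.6 ± 8.87, 87.3 ± 14.6, and 88.3 ± 10.02 normalized counts in the 3 genotypes (SD, n = 5), a difference of -0.02 ± 0.13 (log2, SE) between *Tbr1*K228E/K228E and WT embryos. By sign, 16 of the 18 signals lay below WT in *Tbr1*K228E/K228E embryos, with a median of -0.11. The study itself had already listed *Wnt7b* among its top downregulated genes in *Tbr1*K228E/K228E embryos, and it describes the gene as a direct target of *Tbr1*.

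None of the 6 genes of the PDGF pathway passed the test in either direction. All 6 had means below WT in *Tbr1*K228E/K228E embryos, with a median log2 difference of -0.08. *Pdgfa*, the ligand of the receptor encoded by *Pdgfra*, was at 604 ± 82.0, 592 ± 61.0, and 579.6 ± 49.0 normalized counts in the 3 genotypes (SD, n = 5). The smallest p was that of *Pdgfc*, another ligand of this receptor, at -0.32 ± 0.14 (log2, SE; unadjusted p = 0.0375, limma adjusted p = 1).

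Among 30 transcription factors of the lineage, 0 passed in any of the 3 comparisons, and in *Tbr1*K228E/K228E embryos 19 lay below and 11 above the WT mean. *Zfp536*, a zinc finger gene, had the smallest p between *Tbr1*+/K228E and WT embryos (-0.14 ± 0.06, log2 difference and SE; limma, adjusted p = 0.999). *Sox9*, which glial progenitors need, differed from WT by -0.05 ± 0.09 in *Tbr1*K228E/K228E embryos. *Tcf7l2*, which differentiating oligodendrocytes and thalamic neurons use, ranged from 2175 to 9038 normalized counts over the embryos, and *Myrf*, the regulator of the myelin genes, was at 85.8 ± 26.2 in WT and 73.5 ± 10.9 in *Tbr1*K228E/K228E embryos.

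Of 22 surface and matrix genes of precursors, 20 could be tested and 0 passed. *Tnr*, which encodes the matrix protein tenascin-R, and *Vcan*, which encodes versican, had log2 differences of -0.26 ± 0.08 and -0.30 ± 0.10 between *Tbr1*K228E/K228E and WT embryos (SE; unadjusted p = 0.00708 and 0.00846, limma adjusted p = 1). The study itself, with a count model that was not fitted here, listed both among its differentially expressed genes in *Tbr1*K228E/K228E embryos. Both are also made by neurons or other glia. *Ptprz1*, a receptor phosphatase of glial progenitors, stood at 0.14 ± 0.09 in the same comparison. The 20 premyelinating genes had 0 calls as well. *Bcas1* was at 188 ± 88.2, 160.1 ± 56.0, and 148 ± 42.4 normalized counts in the 3 genotypes (SD, n = 5), and *Enpp6*, which newly formed oligodendrocytes make, was near the limit of the filter, with means of 7.17, 3.78, and 6.55.

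The myelin list, of which 20 of 23 genes were tested, had 0 calls, and 15 of 20 lay below the WT mean in *Tbr1*K228E/K228E embryos, at a median of -0.06. *Mbp*, myelin basic protein, was at 1087 ± 242, 1026 ± 107, and 1093 ± 57.2 normalized counts in the 3 genotypes (SD, n = 5). The smallest p belonged to *Mal* against WT (-0.38 ± 0.23; limma, adjusted p = 1) and to *Ermn* between the mutant groups (-0.54 ± 0.22; limma, adjusted p = 0.996). The mean of *Cldn11*, a claudin of myelin that is also found in the meninges, differed most, by -1.32 ± 1.46, and was picked out after its value was seen, as were *Fgf2* (-0.95 ± 0.57) and *Bmp4* (-0.89 ± 0.89) among the signals. None of these 3 passed the test.

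In the list comparisons not yet described, the gene with the smallest p did not pass either. Between *Tbr1*+/K228E and WT embryos, these genes were *Wnt3*, a Wnt ligand (-0.18 ± 0.15, log2 difference and SE), *Furin*, a protease that processes PDGF precursors (-0.07 ± 0.08), *Ednrb*, an endothelin receptor (-0.19 ± 0.11), and *Enpp6* (-0.92 ± 0.43), with an adjusted p of 0.999 each (limma). Between *Tbr1*K228E/K228E and WT embryos, it was *Kcnj10*, a glial potassium channel (-0.16 ± 0.09; limma, adjusted p = 1). Between the mutant groups they were *Pdgfc* (-0.34 ± 0.14), the transcription factor gene *Sox5* (-0.25 ± 0.16), *Vcan* (-0.24 ± 0.10), and *Enpp6* (0.85 ± 0.43), with an adjusted p of 0.996 each (limma).

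**Figure D5:**
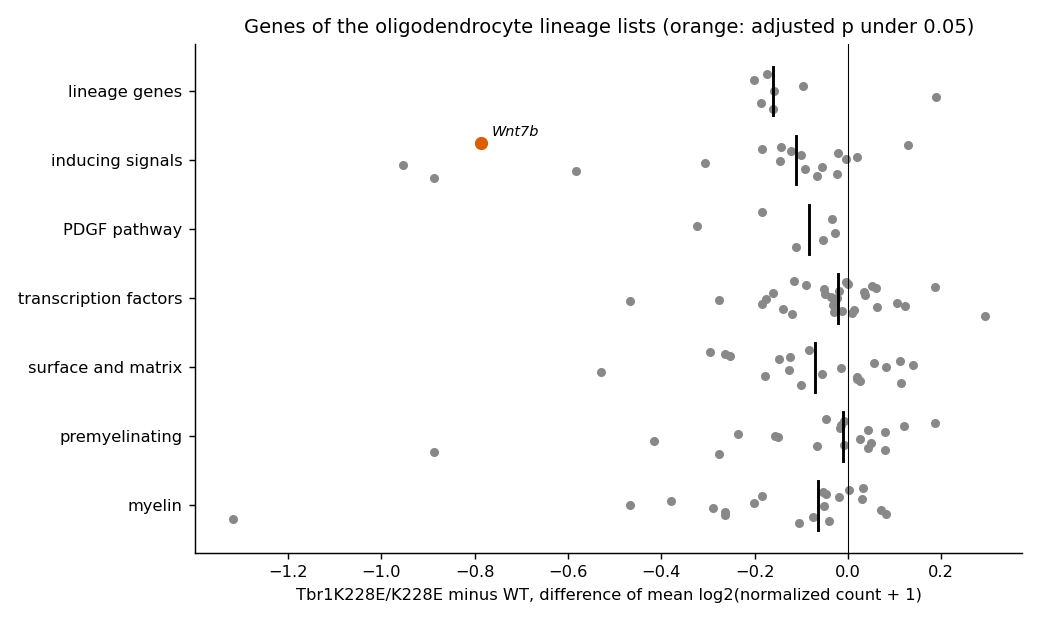
Differences in mean log2(normalized count + 1) between *Tbr1*K228E/K228E and WT embryos (x axis) for every tested gene of the 7 lineage genes and 6 related lists (rows). Black bars are medians, and orange marks an adjusted p under 0.05. *Wnt7b* (-0.79) is the only gene that passed, and the medians lie between -0.16 and -0.01.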

How the data were processed

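RNA-Seq was measured in the brains of 15 E16.5 mouse embryos, grouped by the genotype in the sample labels. Libraries were made with the TruSeq RNA Sample Prep Kit v2. The authors quantified transcripts with Salmon 0.11.2 on GRCm38, summed them per gene through tximport, and scaled the counts by size factors from DESeq2 1.22.2 (R 3.5.3). The deposited values are thus a normalized signal per gene (normalized counts) and not whole reads, so no count model was fitted here. The read depth before normalization is not given in the sources used here, and the embryos' number limits the precision of the values.

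Genotypes were compared with limma 3.58.1 in R 4.3.3 (trended eBayes, Benjamini-Hochberg adjustment) on log2(value + 1) over the 16507 genes whose mean reached 5. The 15 embryos shared 1 fit, and a fold change on this scale understates that of genes with low values. Single genes were also compared by two-sided exact permutation tests of 5 against 5 embryos, whose smallest p is 0.00794. In simulated data, 200 genes drawn from all tested genes, each with its own spread, were made to differ between *Tbr1*K228E/K228E and WT embryos. With a difference of 0.5 on the log2 scale, 57.5% were recovered, with 77% at 1 and 95% at 2. The 7 lineage genes were not simulated apart, so these shares do not describe them. Their SD of 0.16 to 0.39 exceeded the median of 0.15 over all tested genes. Coordinates and exon lengths came from GENCODE M21. Correlations and their permutation p were computed in Python with numpy, with ranks from scipy. The rule that splits embryos into clusters (a gap of over 30% of the range with at least 3 embryos on each side) was chosen after the data were seen.

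The 7 genes, the gene lists, and the tests were chosen with earlier results of these data known, so the lists give no independent support. The genes named are the 7, in each list every gene that passed the test or else that with the smallest p in each comparison, further genes with well-known roles, and the 3 genes most alike to each of the 7. Some genes that this rule names are not reported here. The alternatives were a pseudocount of 10 and other scalings and filters, sex, marker means or the replicate number as covariates, a fit of the 2 compared genotypes alone, and leaving out each embryo in turn. The replicate numbers were checked for pairing and did not pair the embryos.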

Additional observations from a re-analysis of the deposited data

Results flagged for a closer look

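Of 21 groups of 5 embryos (7 genes in 3 genotypes), 2 held an embryo whose gap to the nearest other embryo exceeded 0.71 of the range, Dixon's limit at 95%. Chance alone flags about 1 group in 20. *Pdgfra* was lowest in WT replicate 3, at 894.2 normalized counts, with 1823 to 2073 in the other 4 WT embryos, and this embryo also had the lowest mean of the meningeal fibroblast markers (4.65). *Gpr17* was highest in WT replicate 4, at 773.9 normalized counts, with 324 to 450.2 in the other 4 WT embryos, and this embryo had the lowest dorsal telencephalon mean (10.6). Their part in the values was not tested. None of the 21 interactions between sex and genotype passed an adjusted p of 0.05 (limma; 2 had an unadjusted p under 0.05).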

How the results depend on the processing

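None of the 7 lineage genes was called under any of the alternatives run in the 3 genotype comparisons. Over all genes, leaving out each embryo in turn gave 12 to 22 calls between *Tbr1*K228E/K228E and WT embryos (21 with all embryos) and 6 to 17 between the 2 mutant groups (13). A fit of the 2 compared genotypes alone gave 12 for the former, and the *Hox* mean as a covariate gave 21 for the latter. With the replicate number as a block, the counts were 0, 16, and 2 and the lineage genes remained uncalled. Same-numbered embryos correlated by -0.208 to 0.224, 0.024 to 0.506, and -0.232 to 0.349 in the 3 comparisons, so the number was not taken as a pairing.

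The signs of the small differences depended on single embryos. Without each embryo in turn, the log2 difference from WT in *Tbr1*K228E/K228E embryos ran from -0.258 to 0.00620 for *Olig1*, -0.164 to 0.00782 for *Olig2*, -0.303 to 0.00572 for *Sox10*, and -0.299 to 0.0142 for *Gpr17*, and WT replicate 4 was the embryo whose absence turned each sign. In *Tbr1*+/K228E embryos it ran from -0.332 to 0.00768 for *Gpr17*, -0.0497 to 0.329 for *Nkx2-2*, -0.23 to 0.0731 for *Pdgfra*, and -0.0998 to 0.209 for *Sox10*. Between the mutant groups it ran from -0.0140 to 0.198 for *Olig1*, -0.0232 to 0.129 for *Olig2*, -0.0560 to 0.125 for *Nkx2-2*, and -0.0909 to 0.147 for *Gpr17*. The slopes ran from -0.120 to 0.00623 (*Olig1*), -0.0822 to 0.00539 (*Olig2*), and -0.143 to 0.00710 (*Gpr17*), and the sex differences from -0.0533 to 0.145 (*Pdgfra*) and -0.0183 to 0.0625 (*Cspg4*).

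Covariates also turned signs near 0. With the meningeal mean, *Sox10* between *Tbr1*+/K228E and WT embryos was -0.0148 and *Pdgfra* between the mutant groups 0.0582. With the meningeal and *Hox* means together, added after the data were seen, *Pdgfra* between the mutant groups was 0.0456 and *Gpr17* -0.00952. With the *Hox* mean, *Pdgfra* between *Tbr1*+/K228E and WT embryos was 0.0735. Rescaling to the upper quartile made the sex difference of *Cspg4* -0.00274. Of the relations between members, 3 passed with Pearson's r and 5 with Spearman's rho. Of those with marker lists, 15 passed, with 7 by rho, 7 after quantile normalization, 0 without the 2 farthest embryos, and 6 without WT replicate 4, which was also added after the data were seen. The cause was not tested. With 5 embryos per group, the spread between embryos sets the width of the intervals.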
